A study of Rattus norvegicus with 4 samples.

Results

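The dendritic cell lineage genes described here are Flt3, Tcf4, Id2, Irf8, Irf4, Zbtb46, Xcr1, Clec9a and Cadm1, 9 genes chosen by name for their roles: a growth factor receptor, lineage transcription factors and subset markers. All 9 had probes on the array, 14 probes in all, among 22136 named genes. The 4 one-colour Agilent arrays, 2 per group, measured RNA of spleen cells from male WKAH rats aged 8 to 12 weeks, which had received either saline or liposomes (small lipid vesicles) and were examined at 24 h. The cells had been passed over OX-6 beads to take out those carrying MHC class II and were then held on OX-42 beads, which bind the myeloid integrins CD11b/c. The series title calls them splenic macrophages. All groups shared this sort, and no source used here gives the composition or dose of the liposomes. The comparison asked how expression in this fraction differed between liposome and saline.

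Dendritic cells are the spleen's main cells for presenting antigen to T cells. They arise from marrow progenitors under the growth factor Flt3 ligand and split into plasmacytoid cells, known for type I interferon, and conventional cells of types 1 and 2 (cDC1 and cDC2). An E protein and its inhibitor, members of the interferon regulatory factor (IRF) family and a zinc finger factor mark or direct these branches. Most dendritic cells carry MHC class II, the molecule against which the first beads selected, so the sort selects against them.

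A probe counted as measured when the scanner software had marked it well above background on each array of saline, of liposome or of both. Of the 14 probes, 8 passed, and they covered 7 of the 9 genes. The other 6 probes were not well above background on any array, and they were the only probes for Zbtb46 and Xcr1. These 2 genes therefore have no fold change here. Of the 7 genes tested, 2 were lower on the liposome arrays (Flt3 and Tcf4), 1 was higher (Cadm1) and 4 did not pass the test (Clec9a, Id2, Irf4 and Irf8), at a Benjamini-Hochberg adjusted p under 0.05 in limma over 12858 genes. Among all genes tested, 8.89% passed in either direction, 4.06% as lower and 4.83% as higher. Values of the 2 groups did not overlap for 6 of the 7 tested genes, all but Irf8, but with 2 arrays per group the same held for 65.5% of all genes. The median log2 fold change was -0.59 over the 7 genes and -0.04 over all genes.

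The probe sequences below show what the array read for the genes on which the results turn. Each is a 60-base probe, given 5′ to 3′ with its position on the rat assembly rn4. Capitals mark a stop codon that closes a reading frame open over all the codons before it, 19 codons in 4 of these probes and 18 in the Id2 probe. The second Flt3 probe has no such codon and is shown because it has the same transcript record and starts 3088 bases upstream on rn4. The Clec9a probe shown is the dim one, which is set against its brighter partner further on.
Flt3 probe 1, chr12:8268192-8268251, plus strand: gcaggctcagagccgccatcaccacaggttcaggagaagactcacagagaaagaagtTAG
Flt3 probe 2, chr12:8265104-8265163, plus strand: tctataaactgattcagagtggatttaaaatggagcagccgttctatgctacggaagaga
Id2 probe 1, chr6:42782548-42782897, minus strand: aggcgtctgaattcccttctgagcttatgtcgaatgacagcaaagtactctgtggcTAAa
Irf8, chr19:51116671-51116730, plus strand: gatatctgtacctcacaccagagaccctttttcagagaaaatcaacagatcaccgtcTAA
Clec9a probe 2, chr4:166696210-166696269, plus strand: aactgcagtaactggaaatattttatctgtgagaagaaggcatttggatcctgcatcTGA
Cadm1, chr8:51108720-51108779, plus strand: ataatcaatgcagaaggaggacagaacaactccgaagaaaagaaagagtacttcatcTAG

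Values below are linear processed intensities divided by the 75th percentile of their own array, so a value of 1 equals that percentile. They compare arrays for 1 probe and do not compare probes with each other. The plot of scaled intensity by array shows all 14 probes in this unit.

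**Figure D1:**
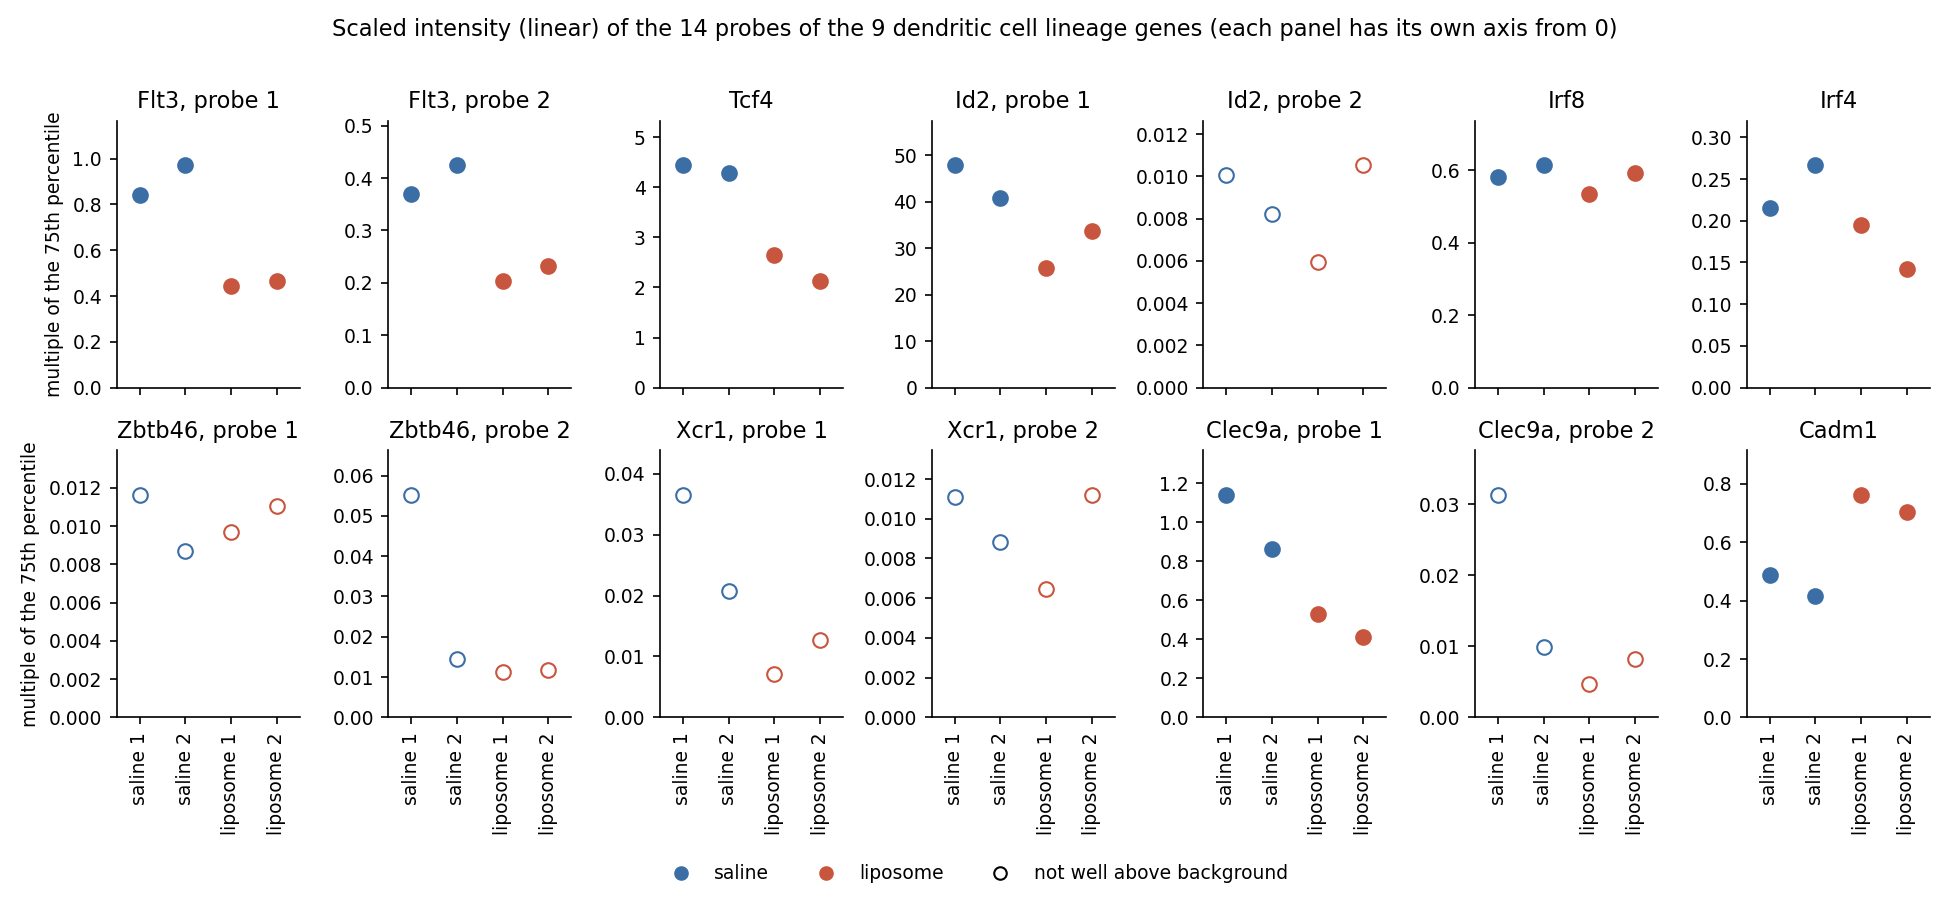
Scaled intensity (multiple of each array's 75th percentile, linear axis from 0, a separate axis per panel) of the 14 probes on the 4 arrays, 1 point per array, with hollow points where the probe was not well above background. Both Flt3 probes, Tcf4 and Clec9a probe 1 sit lower on both liposome arrays, Cadm1 sits higher on both, and the Irf8 points of the 2 groups interleave.

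Flt3, the receptor tyrosine kinase for Flt3 ligand, fell after liposomes. Probe 1, the brighter of its pair, read 0.839 on saline 1, 0.973 on saline 2, 0.446 on liposome 1 and 0.467 on liposome 2. In later sentences the values of a group follow this order. Both liposome values lay below both saline values, and the liposome arrays lay closer to each other than the saline arrays did. This was a 1.98-fold lower level (log2 fold change -0.99, SE 0.12, 95% interval -1.31 to -0.66, limma adjusted p = 0.0267). In bulk RNA, fewer cells of a type and less RNA per cell cannot be told apart, for Flt3 and for every gene that follows.

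Flt3 probe 2 gave the same direction on its own. It read 0.37 and 0.425 on the saline arrays and 0.203 and 0.232 on the liposome arrays, again without overlap. Fitted as a probe among 16852, it was 1.83-fold lower (log2 fold change -0.87, SE 0.13, adjusted p = 0.0424), where 2.88% of all probes were called lower. The probes of this gene share their RNA samples and are not separate replicates. The Flt3 call was kept without saline 1 (adjusted p = 0.0469) and missed the threshold without saline 2 (0.0545), liposome 1 (0.167) or liposome 2 (0.154), with log2 fold changes of -1.09 to -0.88 over all 14 alternatives.

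Tcf4, the E protein (also called E2-2) that maintains the identity of plasmacytoid dendritic cells and is also active in B cells, fell as well. Its probe, at chr18:66359919-66359978 on the plus strand, read 4.44 and 4.28 on the saline arrays, which were nearly alike, and 2.65 and 2.13 on the liposome arrays. The groups did not overlap. The level was 1.83-fold lower (log2 fold change -0.88, SE 0.14, 95% interval -1.27 to -0.49, limma adjusted p = 0.0432). The call was lost without any 1 array, with adjusted p values of 0.0984 without saline 1, 0.0841 without saline 2, 0.135 without liposome 1 and 0.196 without liposome 2.

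Id2, a helix-loop-helix protein that binds E proteins and keeps them off DNA, is needed for cDC1 and for natural killer cells. Its probe 1 read 47.9 and 40.8 on the saline arrays and 25.8 and 33.7 on the liposome arrays. The groups did not overlap, but the 2 liposome values differed from each other by more than the nearest values of the 2 groups did, and the gene did not pass the test (log2 fold change -0.59, SE 0.18, 95% interval -1.07 to -0.10, adjusted p = 0.114). Its probe 2, which the files place 12676 bases away on the same strand, was not well above background on any array, at processed intensities of 6.48 to 11.1. The files tie it to another transcript record than probe 1, and whether it reads Id2 was not tested. Probe 1 spans 350 bases on rn4 for its 60 bases, as the files give it.

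Both IRF members were well above background on all 4 arrays and neither passed the test, with a larger SE for Irf4. Irf8, which directs cDC1 and is also found in monocytes and B cells, read 0.582 and 0.615 on the saline arrays and 0.535 and 0.592 on the liposome arrays. The groups overlapped, and the interval of the log2 difference ran from -0.38 to 0.21 around -0.09 (SE 0.11, adjusted p = 0.608), so a change as large as that of Flt3 lay outside it. Irf4, which directs cDC2 and plasma cells, had its probe at chr17:40173826-40173885 on the minus strand. It read 0.215 and 0.267 on the saline arrays and 0.195 and 0.142 on the liposome arrays. The groups did not overlap, yet saline 1 and liposome 1 were close together, and the gene did not pass (log2 fold change -0.53, SE 0.21, 95% interval -1.09 to 0.04, adjusted p = 0.174).

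Zbtb46, the zinc finger factor found in conventional dendritic cells and their committed progenitors, was not well above background on any of the 4 arrays with either probe. Probe 1 (chr3:170531198-170531257, minus strand) had processed intensities of 8.66 to 11.6. Probe 2 (chr3:170532239-170532298, minus strand) had 53.1 on saline 1 and 12.3 to 14.4 on the other 3 arrays. For comparison, the lowest intensity of any probe marked well above background was 25.8 to 43.5, depending on the array.

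Xcr1, the receptor for the chemokine Xcl1 on cDC1, was likewise not well above background with either probe on any array. Probe 1 (chr8:128615996-128616055, minus strand) had processed intensities of 35.1 and 20.6 on the saline arrays and 7.84 and 13.3 on the liposome arrays. Probe 2 (chr8:128612765-128612824, minus strand) had 7.07 to 11.8. No fold change is given for Zbtb46 or Xcr1, because no probe of theirs was marked well above background on any array.

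Clec9a, the cDC1 lectin that binds actin filaments exposed by dead cells, gave 2 probes that disagreed in whether they could be read at all. Probe 1 (chr4:166698489-166698548, plus strand) was printed in 10 spots per array and read 1.14 and 0.861 on the saline arrays and 0.529 and 0.412 on the liposome arrays. Its spots were tight within an array, at processed intensities of 994 to 1196 on saline 1, 801 to 920 on saline 2, 549 to 623 on liposome 1 and 404 to 468 on liposome 2, so the spread was between arrays. The groups did not overlap, and the fitted level was 2.12-fold lower on the liposome arrays (log2 fold change -1.09, SE 0.21, 95% interval -1.65 to -0.52), but the adjusted p of 0.054 missed the threshold. Over the 14 alternatives it ranged from 0.0174 to 0.282 and passed in 5.

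Clec9a probe 2, whose sequence ends in a stop codon, was not well above background on any array, at processed intensities of 30.1 and 9.84 on the saline arrays and 5.11 and 8.6 on the liposome arrays. Probe 1 lies 2279 bases downstream of it on rn4. What probe 1 reads was not tested, so its values stand for that probe and not for the Clec9a coding sequence.

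Cadm1, an immunoglobulin-family adhesion molecule used as a cDC1 marker and also made by other cell types, was the only one of the 7 tested genes that rose. It read 0.487 and 0.417 on the saline arrays and 0.763 and 0.702 on the liposome arrays. Both liposome values lay above both saline values. The level was 1.63-fold higher (log2 fold change 0.70, SE 0.13, 95% interval 0.36 to 1.04, limma adjusted p = 0.0494). The call stood close to the threshold: it was missed with quantile normalization (0.0504), with probes of a gene averaged (0.0503), with each probe as a feature (0.0551) and without saline 1 (0.0638), saline 2 (0.0811), liposome 1 (0.264) or liposome 2 (0.208), and with dim probes kept (0.283).

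**Figure D2:**
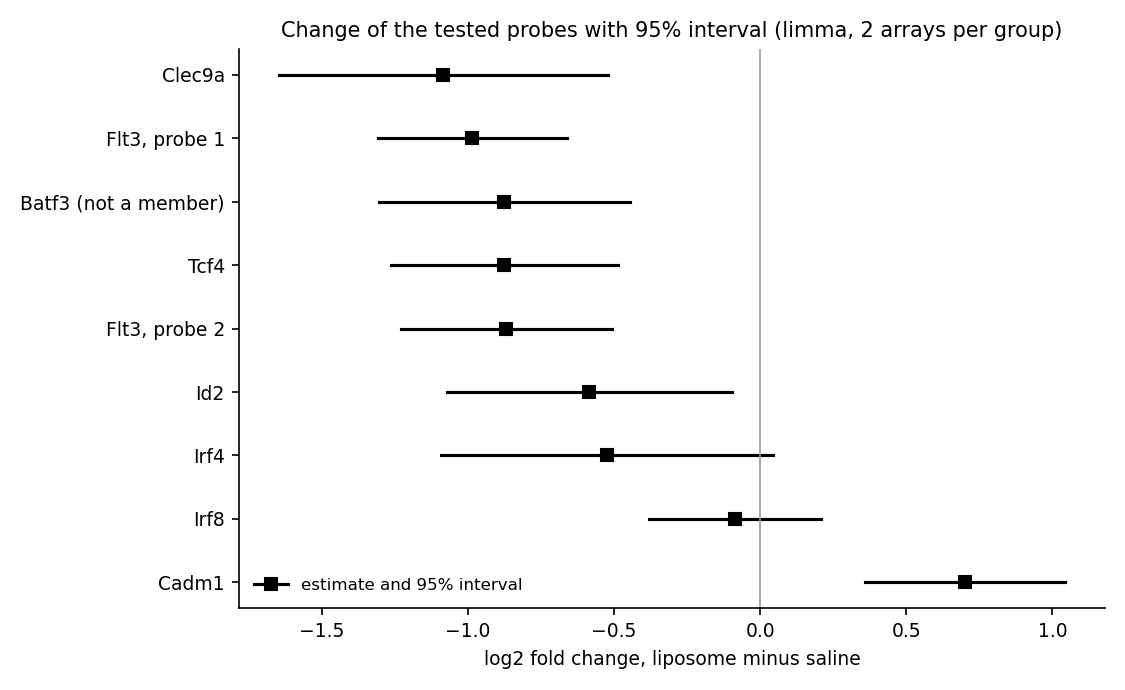
Log2 fold change (liposome minus saline) of the 8 measured probes and of Batf3, with limma's 95% interval as bars, from 2 arrays per group. The intervals of Flt3, Tcf4, Clec9a, Id2 and Batf3 lie below 0, that of Cadm1 lies above 0, and those of Irf4 and Irf8 include 0.

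Batf3, the partner of Irf8 in cDC1, read 1.08 and 0.862 on the saline arrays and 0.562 and 0.49 on the liposome arrays. It fell 1.84-fold (log2 fold change -0.88, SE 0.16, limma adjusted p = 0.0495). That call too was close to the threshold and was lost in 8 of 14 alternatives: without saline 1 (0.0878), saline 2 (0.0594), liposome 1 (0.189) or liposome 2 (0.225), with quantile normalization (0.0545), with probes averaged (0.0503), with each probe as a feature (0.0546) and with dim probes kept (0.278). Over the whole cDC1 list, 9 genes were tested, of which 1 rose (Cadm1), 1 fell (Batf3) and 7 did not pass, with a median log2 fold change of -0.24.

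The rest of the dendritic cell program was read through 8 lists of known factors and markers, 99 genes with the members included. Without the members, 78 genes were tested, of which 6 were lower (7.69%), 3 were higher (3.85%) and 69 did not pass, beside 4.06% lower and 4.83% higher over all genes. Their median log2 fold change was -0.38, and 61 of the 78 values (78.2%) were below 0, beside 53.9% of all genes tested. The lists share some genes, and a list's members are not independent of each other.

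Of the 17 genes tested from the Flt3 pathway and the progenitor factors, Flt3 was the only one called, with a list median of -0.25. The gene of its ligand was not analysed here. The non-member with the smallest adjusted p was Ikzf1, the Ikaros zinc finger factor, at 0.467 and 0.42 on the saline arrays and 0.313 and 0.334 on the liposome arrays (log2 fold change -0.45, SE 0.11, adjusted p = 0.0776). Of the 7 E and Id protein genes tested, all had values below 0 with the main scaling and with median, quantile and normexp settings, but Tcf4 alone passed. Tcf3, another E protein, was at -0.16 (SE 0.12, adjusted p = 0.39), and its second passing probe was at -0.43.

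Of the 9 IRF family genes, Irf1, an interferon-induced activator, was the only one called. It read 88.5 and 81.8 on the saline arrays and 42.2 and 48.3 on the liposome arrays, with no overlap. The level was 1.88-fold lower (log2 fold change -0.91, SE 0.12, adjusted p = 0.0308). Its second passing probe had a log2 fold change of -0.96 but missed the threshold in the fit of single probes (0.0622).

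Of the 7 genes tested that conventional dendritic cells share, 3 fell: Flt3, Bcl6 and Dpp4. Bcl6, a transcriptional repressor also known from germinal centres, read 18.4 and 15.6 on the saline arrays and 8.87 and 8.1 on the liposome arrays (log2 fold change -0.998, SE 0.13, adjusted p = 0.0307). Dpp4, the surface peptidase CD26, read 0.578 and 0.647 against 0.352 and 0.388 (log2 fold change -0.73, SE 0.12, adjusted p = 0.0427; 0.0617 with median scaling). In both, the liposome arrays lay below the saline arrays without overlap.

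The cDC2 list held changes in both directions among 14 genes tested. Clec10a, a galactose-binding lectin of cDC2 and of some macrophages, read 3.01 and 2.17 on the saline arrays and 0.621 and 0.668 on the liposome arrays. It was 3.97-fold lower (log2 fold change -1.99, SE 0.19, adjusted p = 0.0193). Clec4a, an inhibitory lectin of myeloid cells, read 0.257 and 0.268 against 0.48 and 0.533 and was 1.93-fold higher (log2 fold change 0.95, SE 0.11, adjusted p = 0.0235). Rbpj, the factor through which Notch receptors act, read 0.338 and 0.291 against 0.792 and 0.585 and was 2.17-fold higher (log2 fold change 1.12, SE 0.19, adjusted p = 0.0455). The other 11 genes did not pass, and the list median was -0.45.

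Of 17 plasmacytoid genes tested, 2 fell and 1 rose. Beside Tcf4, Ptprs, a receptor phosphatase, read 0.299 and 0.307 on the saline arrays and 0.137 and 0.163 on the liposome arrays (log2 fold change -1.02, SE 0.13, adjusted p = 0.0281). Cox6a2, a subunit of cytochrome c oxidase that is also a muscle gene, went the other way, at 0.149 and 0.187 against 0.401 and 0.439 (log2 fold change 1.33, SE 0.15, adjusted p = 0.0242). The list median was -0.53. None of the 13 mature dendritic cell genes tested was called in limma's main fit. In that fit 6 had an unadjusted p under 0.05, beside 4181 of all 12858 genes. With normexp background 2 of the 13 were called, and with median scaling 1. Ccl17, a chemokine for T cells, came nearest, at 0.502 and 0.332 against 0.191 and 0.181 (log2 fold change -1.13, SE 0.23, adjusted p = 0.0575).

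Without liposome 1 or without liposome 2, none of the 12858 genes passed in limma (2177 and 2397 had an unadjusted p under 0.05), so no list gene kept its call there. Without saline 1 and without saline 2, Clec10a (adjusted p = 0.0337 in both) and Cox6a2 (0.0491 and 0.0438) kept theirs. Irf1 (0.0735 and 0.0621), Bcl6 (0.0606 and 0.053), Dpp4 (0.0675 and 0.0786), Clec4a (0.0606 and 0.0568), Rbpj (0.0869 and 0.098) and Ptprs (0.0699 and 0.0676) did not.

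**Figure D3:**
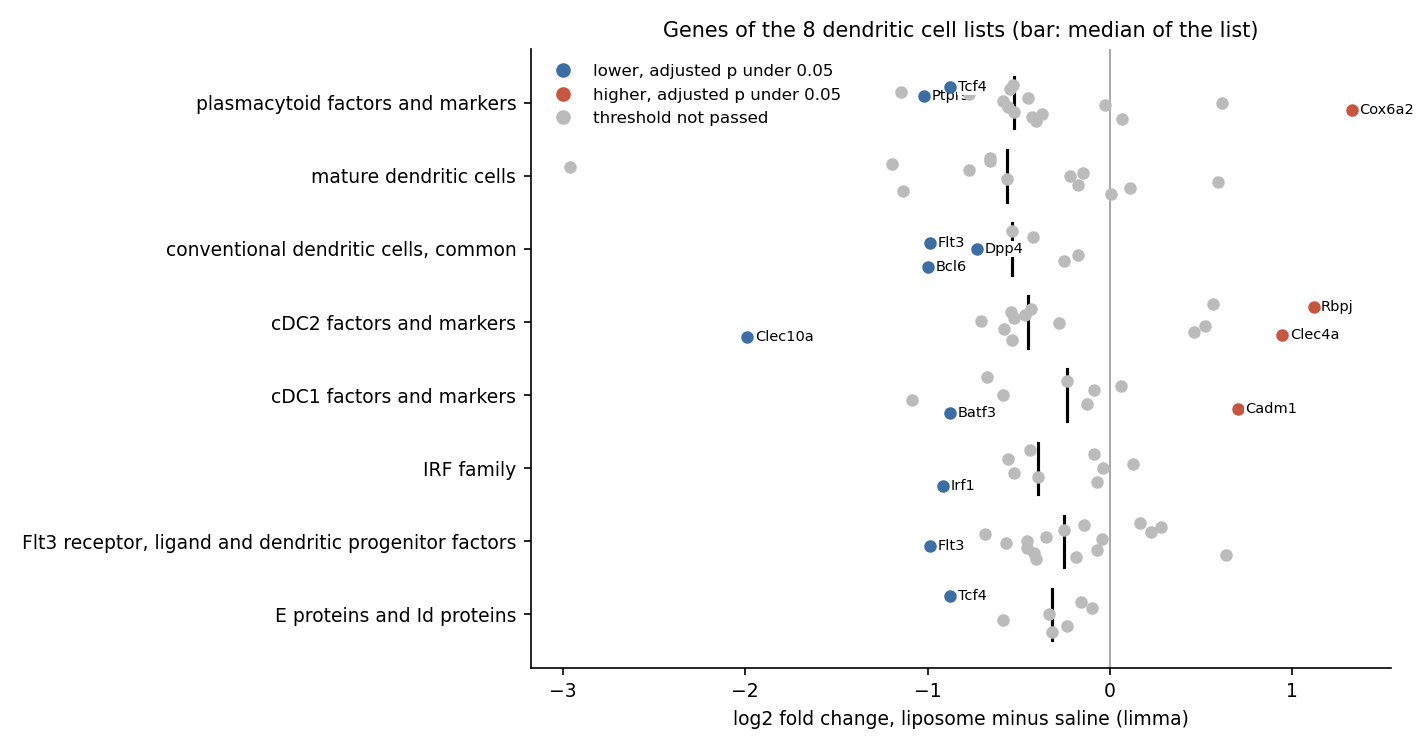
Log2 fold change (liposome minus saline) of every tested gene of the 8 dendritic cell lists, 1 point per gene, with blue for lower and red for higher at an adjusted p under 0.05 and a bar at each list's median. Most points are grey, the called genes are named, and the medians run from -0.57 to -0.24. The leftmost point, Il12b, is a fitted value. Both liposome arrays lacked the well-above-background mark for it, and only a bound of at least 2.81-fold lower holds.

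The markers of cell types that also use these genes were read the same way. Of 9 genes used as dendritic cell markers, 7 were measured, Zbtb46 and Xcr1 were not, and 3 fell (Clec10a, Flt3 and Batf3). This list includes the members Flt3, Clec9a, Zbtb46 and Xcr1, so it is not separate from them. The summed scaled level of the 7 was 7.25 and 6.35 on the saline arrays and 2.92 and 3.03 on the liposome arrays. Clec10a made up 41.5% and 34.2% of the saline sums. Without it the sums were 4.24 and 4.18 against 2.29 and 2.36. Of 13 macrophage markers, 12 were measured and Marco was not above background. Among them 7 fell, led by Cd5l, a secreted macrophage protein (log2 fold change -2.13, adjusted p = 0.0118), and 1 rose, Mertk, a receptor for the uptake of dying cells. On both saline arrays Mertk stayed short of the well-above-background mark (0.0452 and 0.03), and it read 0.266 and 0.225 on the liposome arrays, so its level was at least 6.38-fold higher, set against the lowest well measured signal or its own where that was higher (adjusted p = 0.016). The summed macrophage level was 113 on both saline arrays and 91.1 and 82.1 on the liposome arrays. Cd68, a lysosomal protein that did not pass (log2 fold change 0.76, adjusted p = 0.054), made up 62.4% and 66.3% of the liposome sums, and without it the sums were 76.7 and 84 against 34.2 and 27.7.

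Markers of B and plasma cells, lineages that use Tcf4, Irf4 and Irf8, were all measured, 16 of 16 on the array, and none was called in limma. Of the 16, 11 had an unadjusted p under 0.05, beside 4181 of all 12858 genes, and 3 were called with normexp background. The summed level of the 16 was 99.8 and 98.1 on the saline arrays and 73.2 and 56.3 on the liposome arrays. The smallest adjusted p values were those of Blk, a B cell kinase (log2 fold change -0.91, adjusted p = 0.0612), and Mzb1, a chaperone of plasma cells (-0.82, 0.0712). B cells carry MHC class II, so the OX-6 step selects against them as well. The part of B cell RNA in the Tcf4, Irf4 and Irf8 values was not tested.

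Natural killer cells, which carry Id2, gave 12 measured markers of 12 on the array, with 0 called in limma and 0 at an unadjusted p under 0.05. Their summed level was 68 and 134 on the saline arrays and 51.5 and 78.8 on the liposome arrays, so the arrays of each group differed from each other. The arrays numbered 2 lay above those numbered 1 in both groups, by a median of 1.60 log2 units over these markers for saline and 1.51 for liposome. Of the 12 log2 fold changes, 11 were below 0, with a median of -1.30. Between arrays of the same number, the median liposome minus saline difference was -1.18 for number 1 and -1.26 for number 2. Tbx21, a T-box factor, made up 31% to 72.8% of the sums, which without it were 29.9 and 92.2 against 14 and 40.1. Klrk1, an activating receptor, was at a log2 fold change of -0.31 (adjusted p = 0.208) and Prf1, perforin, at -1.40 (0.287). The second passing probe of Klrk1 was at -1.01 in the fit of single probes (limma adjusted p = 0.0988). Of 12 T cell markers on the array 11 were measured, all but Cd28, again with 0 called and 0 at an unadjusted p under 0.05, and with summed levels of 19.3 and 46.7 against 21.7 and 40.2. Lef1 was at 0.76 (adjusted p = 0.225) and Cd8b at -0.23 (0.398). The part of natural killer cell RNA in the Id2 values was not tested.

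Markers of other blood cells fell in part. Of 7 monocyte markers measured (all but F13a1), 3 fell, with Cx3cr1 at -0.99 (adjusted p = 0.0361) and Nr4a1 at -1.16 (0.0371), and the summed level was 131 and 118 against 72.5 and 83.4. Cd14 (log2 fold change 0.55, limma adjusted p = 0.19) and Vcan (0.68, 0.269) went the other way and were not called. Without Nr4a1, the largest contributor, the monocyte sums overlapped, at 68.1 and 47.8 against 46.5 and 49.4. Of 8 neutrophil markers measured (Mpo and Ltf were not above background), 5 fell, with Ngp at -1.31 (0.016) and Cd177 at -1.37 (0.0224), at 238 and 264 against 142 and 154. Of 7 red cell markers, 5 fell, with Hba-a1 at -1.44 (0.00978) and Hbb at -1.53 (0.0131), at 79.4 and 81.9 against 29.9 and 28.7. Among the 7, 1 went the other way, at a log2 fold change of 0.69, and was not called. Hba-a1 made up 65.5% to 68% of the red cell sums, which without it were 26.1 and 28.2 against 9.99 and 9.16. The part of a changed cell mix in the values of Flt3, Tcf4 and Cadm1 was not tested.

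**Figure D4:**
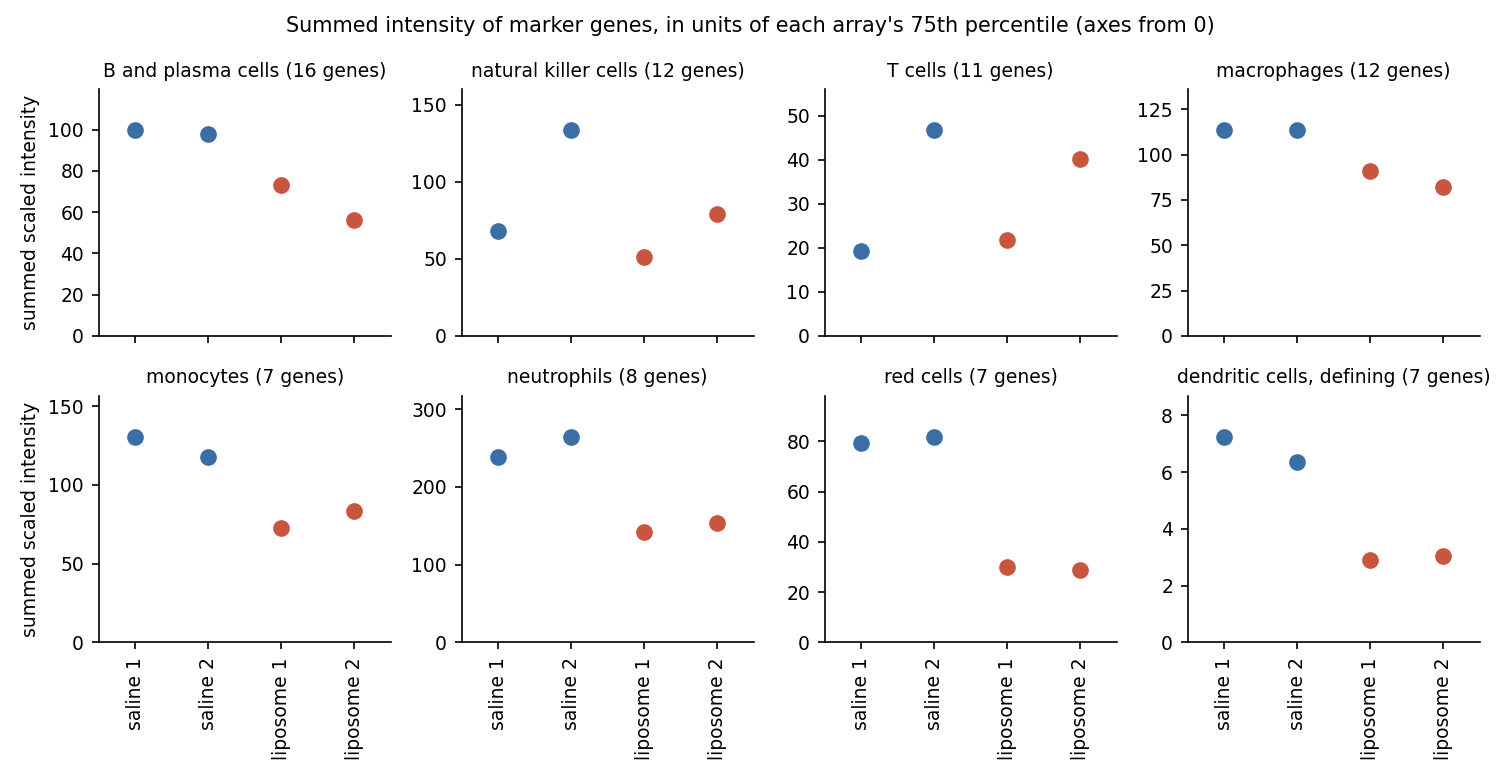
Summed scaled intensity (multiples of each array's 75th percentile, linear axes from 0) of the measured markers of 8 cell types on the 4 arrays, 1 point per array. The dendritic cell (panel labelled defining), B and plasma cell, macrophage, neutrophil, monocyte and red cell sums are lower on both liposome arrays. The natural killer and T cell sums of the 2 groups overlap.

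For each called member, the tested genes were ranked by how nearly their centred log2 values on the 4 arrays matched. Ccnjl, Rhd, Msh5 and Tnfaip8 came nearest to Flt3, with root mean square differences of 0.00946, 0.0131, 0.0205 and 0.0404 log2 units. Efcc1, Vom1r6, Chst7 and Mia came nearest to Tcf4, at 0.0274 to 0.0452. Rhd, Efcc1 and Vom1r6 were not well above background on every array, so their match rests in part on dim values. With normexp background, the log2 fold change was -0.43 for Rhd, -0.70 for Ccnjl, -0.71 for Msh5 and -0.91 for Tnfaip8, beside -0.89 for Flt3. It was -0.48 for Efcc1, -0.44 for Vom1r6, -0.57 for Chst7 and -0.60 for Mia, beside -0.85 for Tcf4. Akr7a2, Tmem140 and Litaf were among the 4 nearest to Cadm1, at 0.0172 to 0.0206, and the nearest, at 0.0117, has only a transcript identifier. With normexp background that nearest match had a log2 fold change of 0.26, beside 0.61 for Cadm1. Akr7a2, Tmem140 and Litaf were then at 0.66 to 0.71. Within 0.1 log2 units lay 45 genes for Flt3 (0.35% of those tested), 70 for Tcf4 (0.544%) and 261 for Cadm1 (2.03%).

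**Figure D5:**
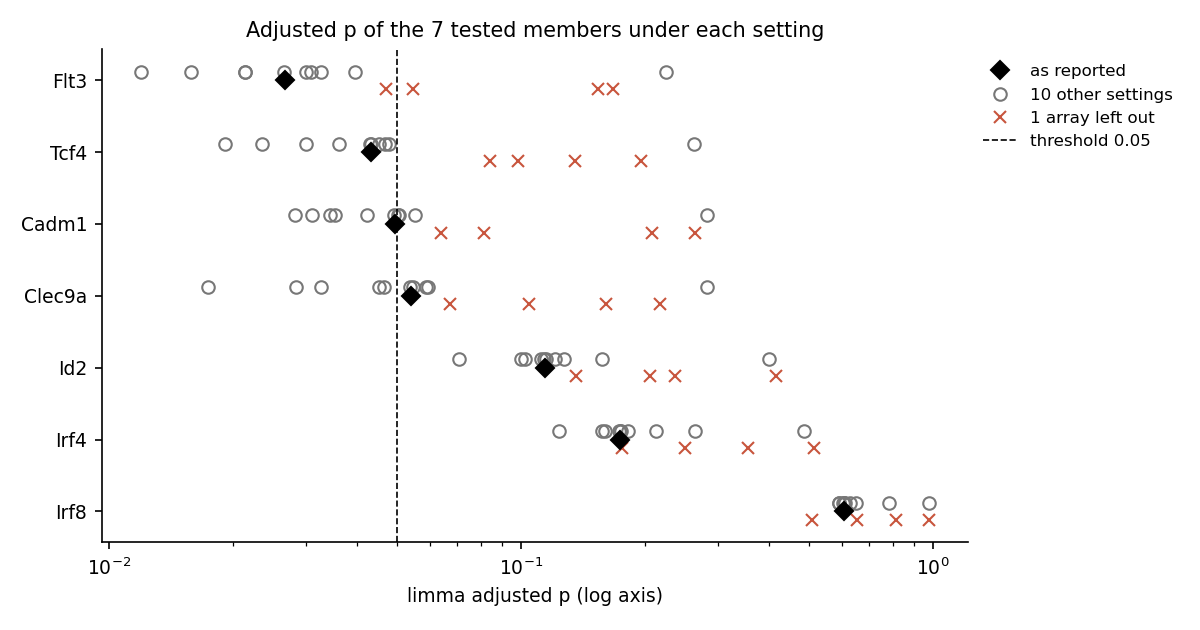
Limma adjusted p (log axis) of the 7 tested members as reported (diamonds), under 10 other settings (circles) and with 1 array left out (crosses), with the threshold of 0.05 dashed. Flt3, Tcf4, Cadm1 and Clec9a have values on both sides of the threshold, while Id2, Irf4 and Irf8 stay above it in every setting run.

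Across the whole array, 621 genes were higher and 522 lower, or 852 and 442 when arrays were scaled to their medians. Median processed intensities were 171 to 188, 61.3% to 66.3% of 42877 spots per array were well above background, and no spot was saturated. Whether a group's 2 arrays stand for 2 animals is not stated in the labels. The p-values therefore reflect the spread among these arrays alone, and that spread may be technical.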

How the data were processed

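The deposited files hold spot intensities of 4 one-colour arrays on a linear scale. Agilent Feature Extraction 10.7.3.1 is named in the submitters' processing notes. Per the file headers, the authors' processed intensity was background-corrected within each array and not scaled between arrays. All 4 arrays lay on 1 slide. After dropping control and outlier spots, log2 values were averaged over a probe's spots and each array's 75th percentile was subtracted. Gene names came from a match of 18006 of 30367 probes' accessions to RefSeq, then from the files (8186 probes), and 4175 stayed unnamed. The brightest passing probe stood for its gene. The fit of 12858 genes used limma 3.58.1 (lmFit and eBayes, 2 residual degrees of freedom) under R 4.3.3, with Benjamini-Hochberg adjustment over all of them. The script was tested on simulated data. With 2 arrays against 2, an exact permutation p is at least 0.333. For arrays, their number limits the precision.

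Members, lists and tests were chosen with earlier results of these data known. The text names all members, Batf3, up to 3 called non-members per list (or the 1 of smallest adjusted p), 2 genes per marker list and the 4 nearest genes of each called member. Some others are named where they dominate a sum, were not well above background or moved against their list. Not every gene that moved against its list is named. Alternatives were other scalings, background correction, filters, probe and name rules, a trended prior, a replicate block and each array left out. Positions come from the files (rn4), and no annotation of that build was used here.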

Additional observations from a re-analysis of the deposited data

How the results depend on the processing

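No value of the 7 tested genes changed direction in the 14 alternatives, and over them the log2 fold change was -1.03 to -0.72 for Tcf4, -0.78 to -0.39 for Id2, -0.16 to -0.01 for Irf8, -0.75 to -0.30 for Irf4, -1.29 to -0.88 for Clec9a and 0.59 to 0.81 for Cadm1. Tcf3, named from a list and not called, turned to 0.10 when names came from the files alone. Against 1143 genes called as reported, 1740 were called with normexp background, 1962 with a trended prior, and 0 to 499 with 1 array left out. When dim probes were kept, 0 of 21971 genes passed in limma (3005 at an unadjusted p under 0.05) and 0 of the 7 (5 at an unadjusted p under 0.05, as in the reported fit). With 1 array left out, 0 to 1 of these genes were called. Each such fit left 1 group with 1 array, which was assumed to vary like the other group. It had 1 residual degree of freedom, beside 2 in the reported fit. The titles end in exp1 or exp2 in both groups, and no label says whether arrays of one number shared animals, a day or a batch. Over genes, the difference between array 2 and array 1 correlated at 0.355 between the groups, with only 2 pairs. With a replicate block by that number 1816 genes and 4 of the 7 were called, Clec9a among them (adjusted p = 0.0174). Of the markers named and not called as reported, the block also called Blk (0.0256), Prf1 (0.0125) and Lef1 (0.0459), and of the list genes Ccl17 (0.0316). For arrays, signal over background limits Zbtb46, Xcr1 and the second probes of Clec9a and Id2.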
